A study of Homo sapiens with 9 samples.

Results

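The comparison sets the apatinib-resistant HSC-3 line (group MPTN) against HSC-3 cells exposed to apatinib for 24 h (group MPTN24), across all genes and without the parental WT libraries. Its members are 6 of the 9 libraries of the study, 3 in each group, chosen by the group names on the count columns. HSC-3 is a human line from an oral squamous cell carcinoma, and apatinib is an inhibitor of the VEGF receptor KDR that acts more weakly on KIT and RET. The resistant cells were grown with the drug until they tolerated it, and polyadenylated RNA was sequenced. The names MPTN and MPTN24 are not spelled out in the labels: the number in MPTN24 was read as the 24 h of exposure, which leaves MPTN for the resistant line. Drug dose, the length of selection, the number of resistant clones and whether apatinib was present when MPTN cells were harvested are not given in the labels. Both groups had met the drug, so the contrast sets the resistant line against a short exposure and not against untreated cells. Nothing states that the 3 libraries of a group came from separate cultures, so the p-values measure the spread between these libraries, which may be technical.

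A kinase inhibitor can lower growth signals, division and lipid synthesis within a day, while a line kept under a drug can settle in another state over many divisions. Type I and type III interferons are secreted proteins made when a cell senses nucleic acids; they act on cell-surface receptors, whose JAK kinases activate transcription factors that then switch on a broad set of antiviral genes. In carcinoma cells the same genes include the chemokines that attract T cells and the molecules that present antigen to them.

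The libraries held 70969935, 75634485 and 98890929 estimated counts in MPTN, against 60383313, 65256683 and 65220502 in MPTN24. Between 20917 and 21374 genes had a count in MPTN libraries, and between 19947 and 20341 in MPTN24 libraries. The mitochondrial genome took 4.66% to 5.13% of counts in MPTN and 5.04% to 5.73% in MPTN24. Squamous markers (KRT5, KRT14, KRT17, TP63, CDH1, EPCAM, DSG3 and ITGB4) were detected, 8 of 8, with a summed level of 11600 to 13100 CPM, the usual depth-scaled count, in MPTN and 11400 to 12700 CPM in MPTN24. The first principal component held 42.5% of the variance and placed the MPTN libraries at -43 to -41.9 and the MPTN24 libraries at 37.2 to 48. The second, at 17.7%, set MPTN24 1 (52.3) apart from MPTN24 2 (-30.6) and MPTN24 3 (-27.1).

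Of 16405 genes tested, 1880 were higher in MPTN and 1671 lower, which is 21.6% of those tested (11.5% higher and 10.2% lower). A gene is called higher or lower here at an adjusted p under 0.05 in the quasi-likelihood test of edgeR, adjusted by Benjamini-Hochberg over all tested genes. Most called changes were small: their median size was 0.52 on the log2 scale, and 445 genes higher and 157 lower reached 2-fold, 17% of the calls. Genes whose 3 MPTN values lay wholly above or below the 3 MPTN24 values numbered 6357, or 38.8% of those tested. The counts changed when 1 library was left out. Without MPTN24 3, 908 genes were lower and 1254 higher, and without MPTN 2, 1080 and 1294. Without MPTN 3, 1938 were lower and 1932 higher. Such a fit has fewer libraries and less power, so a call lost in it need not rest on the library left out. Higher genes made up 52.9% of the calls, against 66.5% and 66.4% with limma on log2(FPKM + 0.1) and log2(FPKM + 1), where 955 and 966 genes were lower.

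**Figure D1:**
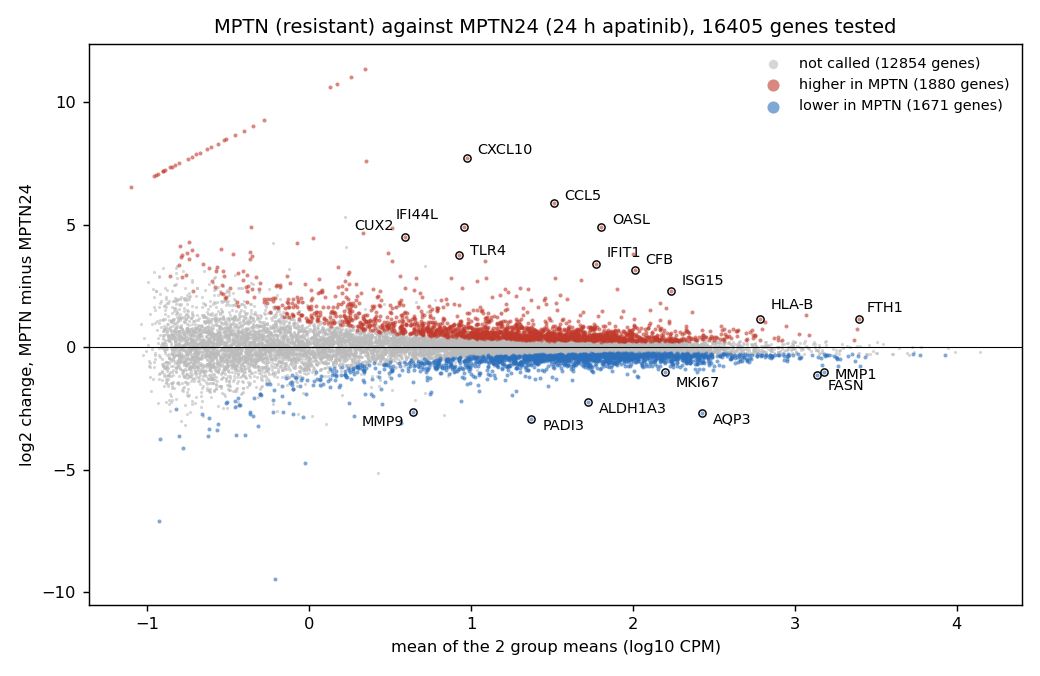
Log2 change (MPTN minus MPTN24, vertical axis) against the mean CPM of both groups (log10, horizontal axis) for the 16405 tested genes; red genes (1880) were called higher in MPTN, blue genes (1671) lower, grey genes not called. Among the genes labelled by name, CXCL10, CCL5, IFI44L and OASL stand at the top, and PADI3, AQP3 and MMP9 at the bottom. Points in slanted lines at the far left have few or no counts in one group, and their height depends on the prior count.

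The largest rises among genes at 5 CPM or more were led by chemokines and antiviral genes that interferon is known to induce. CXCL10 (ENSG00000169245, chromosome 4, 76021118 to 76023497), a chemokine that draws T cells through CXCR3, was at 17, 19 and 20 CPM in MPTN, against 0.0696, 0.0613 and 0.125 CPM in MPTN24. The groups were far apart, 214-fold (log2 change 7.74 ± 0.22, SE; edgeR adjusted p = 3.5e-10). CCL5 (ENSG00000271503, chromosome 17, 35871491 to 35880793), another T-cell chemokine, was at 59.3, 67 and 64.5 CPM in MPTN and at 0.818, 1.53 and 0.877 CPM in MPTN24 (58.6-fold, edgeR adjusted p = 9.7e-10). CXCL11, which shares the receptor of CXCL10, was 29.1-fold higher. OASL (ENSG00000135114, chromosome 12, 121019111 to 121039242), an antiviral relative of the oligoadenylate synthetases, was at 116, 117 and 135 CPM in MPTN, against 4.42, 3.24 and 4.74 CPM in MPTN24 (29.7-fold, edgeR adjusted p = 3.5e-10). The interferon-induced genes IFI44L (30.2-fold) and IFI6 (14-fold) were also among the 10.

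The other large rises were in genes of neither kind. CUX2 (ENSG00000111249, chromosome 12, 111034165 to 111350554), a homeobox transcription factor, was at 9.52, 7.7 and 5.25 CPM in MPTN and at 0.209, 0.399 and 0.376 CPM in MPTN24 (22.6-fold, edgeR adjusted p = 7.2e-07). TLR4 (ENSG00000136869, chromosome 9, 117704175 to 117724735), the receptor for bacterial lipopolysaccharide, was at 15.7, 17.3 and 14.4 CPM in MPTN, against 1.15, 1.33 and 0.955 CPM in MPTN24 (13.8-fold, edgeR adjusted p = 1.8e-08). EPB41L4A, a membrane-cytoskeleton protein, rose 14.3-fold, and NCAM1, a cell adhesion molecule, 11.5-fold. In each of these the lowest MPTN library was several times the highest MPTN24 library.

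The 10 largest falls held genes of varied function. AQP3 (ENSG00000165272, chromosome 9, 33441156 to 33447596), the glycerol and water channel of keratinocytes, was at 66.6, 71.5 and 77.8 CPM in MPTN and at 470, 439 and 467 CPM in MPTN24 (6.37-fold lower, log2 change -2.67 ± 0.09, edgeR adjusted p = 1.2e-09). UPK2, a uroplakin, was 8.63-fold lower, and PADI3, which converts arginine to citrulline in structural proteins, 7.61-fold lower (5.48 ± 0.78 CPM in MPTN against 41.7 ± 4.5 CPM in MPTN24; mean ± SD, n = 3 each). ALDH1A3 (ENSG00000184254, chromosome 15, 100877714 to 100916626), which makes retinoic acid, was at 19.2, 20.3 and 15.4 CPM in MPTN, against 75.2, 103 and 83.2 CPM in MPTN24 (4.76-fold lower, edgeR adjusted p = 2.6e-07). STMN3, a tubulin-binding stathmin, and the histone variant gene MACROH2A2 were 3.56-fold and 3.45-fold lower. The gelatinase B gene MMP9 was 6.22-fold lower, a call that ended when the WT libraries entered the fit (edgeR adjusted p = 0.072). LAPTM5 and HCLS1, both best known from blood cells, were 4.53-fold and 3.92-fold lower. The innate adaptor gene CARD9 was at 1.88, 2.64 and 2.55 CPM in MPTN and spread from 4.51 to 14.1 CPM in MPTN24. Its call (edgeR adjusted p = 0.0099) ended without MPTN 1 (0.099), MPTN 2 (0.054) or MPTN 3 (0.078), and with WT in the fit (0.19).

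Interferon genes themselves were read in MPTN libraries and had no counts in MPTN24. IFNB1 (ENSG00000171855, chromosome 9, 21077104 to 21077942), the type I interferon of epithelial cells, had 132, 175 and 393 counts in MPTN and 0 in each MPTN24 library, which makes it at least 43.5-fold higher (edgeR adjusted p = 8.7e-06). The bound sets the empty group at 12 counts over its 3 libraries, or 3 read pairs, since 1 pair often appeared as 4 counts. IFNL1 (ENSG00000182393, chromosome 19, 39296407 to 39298673), a type III interferon, had 241, 399 and 490 counts in MPTN and 0 in MPTN24 (at least 70.2-fold higher, edgeR adjusted p = 6.3e-07). IFNL2 (235, 194 and 313 counts in MPTN) and IFNL3 (267, 272 and 371 counts in MPTN) were also at 0 in MPTN24, at least 46.1-fold and 56.5-fold higher; their sequences are nearly identical, so the split between them is uncertain. Levels stayed low even so, between 1.77 and 5.11 CPM across the MPTN libraries of these genes. IFNA1, IFNA2, IFNL4 and IFNG had 0 counts in the 6 libraries.

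The receptors for these ligands showed no call. IFNAR1, a chain of the type I receptor, was at 35.4, 35.5 and 27.3 CPM in MPTN, against 36.3, 41.6 and 42.2 CPM in MPTN24 (a log2 change of -0.29 ± 0.12; edgeR adjusted p = 0.096). IFNAR2 differed by 0.14 ± 0.11, IFNLR1, the specific chain of the type III receptor, by 0.23 ± 0.11, and its partner IL10RB by -0.08 ± 0.09 (log2 change ± SE; edgeR adjusted p = 0.39, 0.15 and 0.58).

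Interferon-stimulated genes rose almost as a body: of 40 on the list, all tested, 37 were higher and 0 lower, with a median log2 change of 1.42 against 0.01 over all tested genes. The count lay between 35 and 39 when 1 library was left out. In 39 of the 40 the groups did not overlap, against 38.8% of all tested genes. IFIT1 (ENSG00000185745, chromosome 10, 89392546 to 89406487), an RNA-binding antiviral protein, was at 92.4, 104 and 127 CPM in MPTN and at 9.83, 11.5 and 9.58 CPM in MPTN24 (10.4-fold, edgeR adjusted p = 5.1e-09). ISG15, a ubiquitin-like modifier, was at 251, 257 and 346 CPM in MPTN, against 62.1, 57.7 and 53.1 CPM in MPTN24 (4.94-fold, edgeR adjusted p = 1.1e-07). The dynamin-like GTPase genes MX1 and MX2 were 7.16-fold and 11.3-fold higher, IFIT2 was 6.79-fold higher, and OAS1, which makes the activator of RNase L, 2.68-fold. RSAD2, the antiviral enzyme viperin, had 360, 351 and 393 counts in MPTN and 0, 4 and 0 in MPTN24, a ratio of 206 with an exact 95% counting interval of 36.6 to 8153.

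Start regions of these genes carry the element that interferon-activated transcription factors bind. The core of the interferon-stimulated response element, the letters GAAA, any 2 bases and GAAA again, was searched on both strands (RefSeq, GRCh38.p14). The search took the 250 bases before each listed start of a gene, 35116 starts for 27305 genes. A gene counted if any of its starts had a match. It was found in 25 of the 33 interferon-stimulated genes with a sequence (75.8%), against 3.71% of 27305 genes. Among tested genes with a sequence the share was 5.88% of 1428 higher in MPTN, 3.06% of 1273 lower and 3.22% of 8506 not called. The 84 higher genes with the core include 24 called members of the list, so the 5.88% is not separate from the list's own share. Below are the 250 bases before a start of IFIT1, ISG15, IFI6 and CXCL10, 5′ to 3′ on the gene's strand, with each match in capitals. Where a gene had several starts, here and for the genes shown later, the start with the most matches was taken. The sequences show how the same core recurs, on either strand, at varied distance. In IFIT1 the matches begin 116 and 103 bases before the start and read as the reverse complement; in ISG15 they overlap, at 113 and 107 bases; in IFI6 they begin at 156, 115 and 93 bases; in CXCL10 at 221.

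IFIT1 (chr10:89392373-89392622, plus strand): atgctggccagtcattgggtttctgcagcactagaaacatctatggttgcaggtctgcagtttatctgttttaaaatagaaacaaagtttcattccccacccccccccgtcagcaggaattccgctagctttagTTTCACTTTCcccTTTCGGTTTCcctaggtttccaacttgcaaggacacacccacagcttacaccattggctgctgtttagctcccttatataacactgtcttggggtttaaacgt

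ISG15 (chr1:1013247-1013496, plus strand): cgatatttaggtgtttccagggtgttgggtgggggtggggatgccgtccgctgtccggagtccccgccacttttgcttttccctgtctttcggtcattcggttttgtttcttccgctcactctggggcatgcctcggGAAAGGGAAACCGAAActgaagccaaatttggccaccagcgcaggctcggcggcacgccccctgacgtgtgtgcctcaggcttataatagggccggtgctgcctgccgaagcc

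IFI6 (chr1:27672193-27672442, minus strand): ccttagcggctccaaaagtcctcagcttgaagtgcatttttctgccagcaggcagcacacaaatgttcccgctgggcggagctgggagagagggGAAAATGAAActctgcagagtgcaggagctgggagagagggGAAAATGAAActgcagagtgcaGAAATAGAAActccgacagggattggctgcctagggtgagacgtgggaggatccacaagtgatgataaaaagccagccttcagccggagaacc

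CXCL10 (chr4:76023498-76023747, minus strand): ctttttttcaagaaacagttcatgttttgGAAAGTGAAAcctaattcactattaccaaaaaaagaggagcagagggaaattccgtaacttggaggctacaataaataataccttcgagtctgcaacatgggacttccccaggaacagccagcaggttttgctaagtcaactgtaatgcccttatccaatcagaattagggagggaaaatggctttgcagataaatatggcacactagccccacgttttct

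A match is a description of letters, not of binding. The factors and sensors of the pathway moved less than its targets. Of 21 JAK, STAT and IRF genes, 7 were higher and 0 lower (median log2 change 0.19), with 1 lower without MPTN 3 or MPTN24 2. SOCS3, a feedback inhibitor of JAK kinases, was at 55.1, 55.8 and 54.2 CPM in MPTN and at 25.8, 24.5 and 27.9 CPM in MPTN24 (2.11-fold, edgeR adjusted p = 6.3e-06). IRF7, the inducible amplifier of interferon genes, was 1.94-fold higher and IRF9, which binds the response element, 2.08-fold (13.5 ± 3.5 CPM in MPTN against 6.49 ± 1.5 CPM in MPTN24). IRF3, which is regulated by phosphorylation, was at 79.3 ± 12 CPM in MPTN and 81.6 ± 7.1 CPM in MPTN24 (edgeR adjusted p = 0.85).

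Of 16 nucleic acid sensor genes, 7 were higher and 0 lower (median log2 change 0.32). DDX58, the RNA sensor RIG-I, was at 45.8, 44.4 and 43.2 CPM in MPTN, against 10.6, 13.4 and 11.6 CPM in MPTN24 (3.75-fold, edgeR adjusted p = 1.8e-07). DHX58, which encodes its relative LGP2, was 2.3-fold higher, IFIH1, the long double-stranded RNA sensor MDA5, 1.96-fold, and AIM2, a sensor of cytosolic DNA, 1.92-fold. ZBP1, a sensor of left-handed nucleic acids, had 42, 27 and 57 counts in MPTN and 0 in MPTN24 (at least 7.82-fold higher). Of 20 genes of MHC class I and peptide loading, 7 were higher and 1 lower (median log2 change 0.19). HLA-B was at 842, 818 and 880 CPM in MPTN, against 382, 365 and 379 CPM in MPTN24 (2.26-fold, edgeR adjusted p = 1e-06), and its light chain B2M at 844, 844 and 936 CPM in MPTN against 423, 452 and 403 CPM in MPTN24 (2.05-fold). HLA-C and HLA-F were 1.84-fold and 2.07-fold higher; class I genes share sequence, so reads may be split among them. The chaperone gene CALR was 1.29-fold lower, a call that ended with WT in the fit (edgeR adjusted p = 0.15). CD274, which encodes the checkpoint ligand PD-L1, was at 18.4, 16.9 and 15 CPM in MPTN and 10.8, 11.3 and 11 CPM in MPTN24 (1.52-fold, edgeR adjusted p = 0.0022; 0.058 with WT in the fit).

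**Figure D2:**
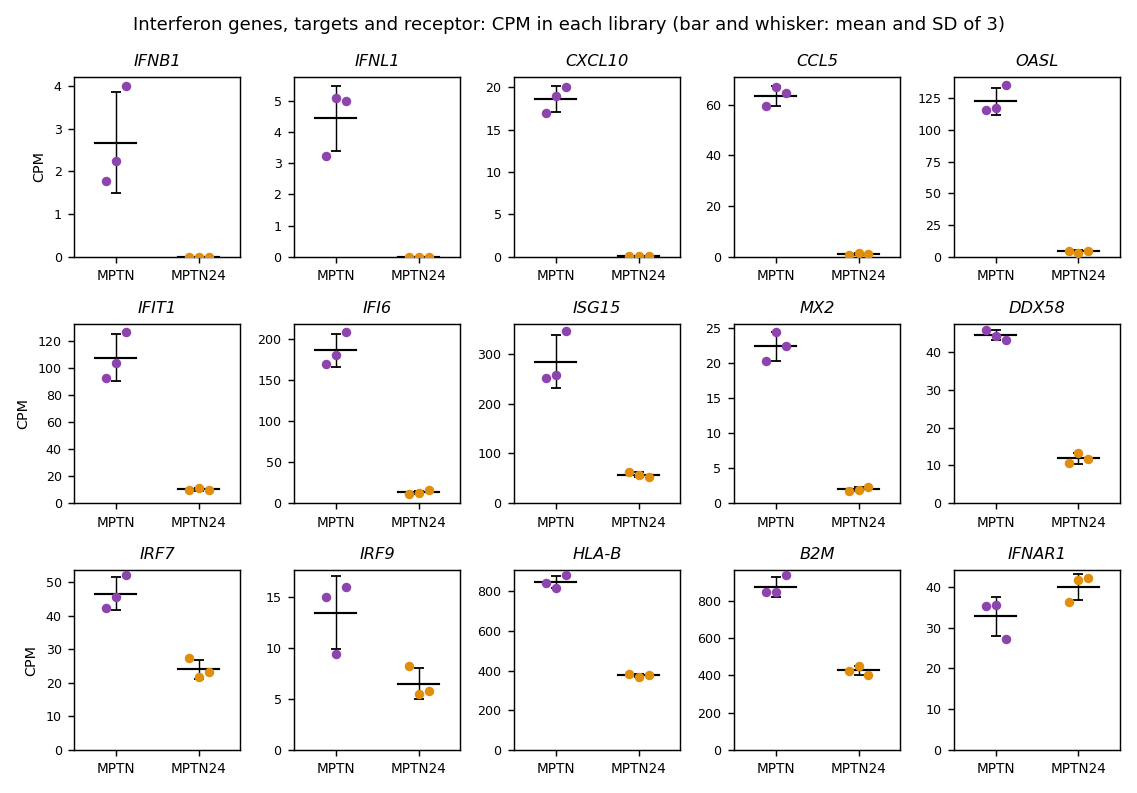
CPM (vertical axis, from 0) of 15 interferon-pathway genes in each MPTN (left, purple) and MPTN24 (right, orange) library, with bars and whiskers for the mean and SD of 3 libraries. IFNB1 and IFNL1 are at 0 in MPTN24, targets such as OASL and IFIT1 lie well apart, IRF7 and IRF9 differ less, and IFNAR1 was not called.

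Many cytokine and NF-kB genes also rose. Of 34 tested members (35 on the list), 21 were higher and 1 lower, or 14 and 1 with WT in the fit, with a median log2 change of 0.5; the list also holds CXCL10, CXCL11 and CCL5. CFB, complement factor B, was at 190, 183 and 179 CPM in MPTN and at 20.5, 20.3 and 21.2 CPM in MPTN24 (8.93-fold, edgeR adjusted p = 3.2e-10). CXCL8, the neutrophil chemokine, was at 176, 180 and 212 CPM in MPTN, against 67.7, 61.9 and 66.4 CPM in MPTN24 (2.9-fold, edgeR adjusted p = 3e-07). CXCL2, which shares its receptor, rose 2.08-fold, and the cytokine gene IL6 2.71-fold, to 4.64 ± 0.31 CPM in MPTN against 1.71 ± 0.42 CPM in MPTN24. IL1B went the other way, at 184, 180 and 175 CPM in MPTN and 232, 245 and 234 CPM in MPTN24 (1.32-fold lower, edgeR adjusted p = 0.0026). The number lower was 1 or 2 across the fits that left out 1 library, 2 without MPTN 1 or MPTN24 1. An NF-kB site, the letters GGGA, any base and TTTCC, searched on both strands of the same windows, was found in 11 of 26 members with a sequence, against 0.645% of all 27305 genes, and in 1.33% of higher, 0.236% of lower and 0.776% of not called tested genes. Among the called members with a sequence it was in 6 of 17 (35.3%), against 42.3% of all 26. The 19 higher tested genes with the site include called members of this list, so the 1.33% is not separate from it. The site of CXCL2 begins 78 bases before the start and is in capitals:

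CXCL2 (chr4:74099196-74099445, minus strand): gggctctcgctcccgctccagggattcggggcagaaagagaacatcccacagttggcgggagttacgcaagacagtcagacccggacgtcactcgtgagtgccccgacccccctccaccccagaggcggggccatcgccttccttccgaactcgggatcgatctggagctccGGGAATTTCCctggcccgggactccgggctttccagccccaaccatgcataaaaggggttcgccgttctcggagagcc

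The called shares of the lists ran from nearly all higher to nearly all lower, with many lists in between close to the shares over all genes. Lists are described by their counts and medians, with no test of the list. The shares over all tested genes, 11.5% higher and 10.2% lower, are the measure for each list count.

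**Figure D3:**
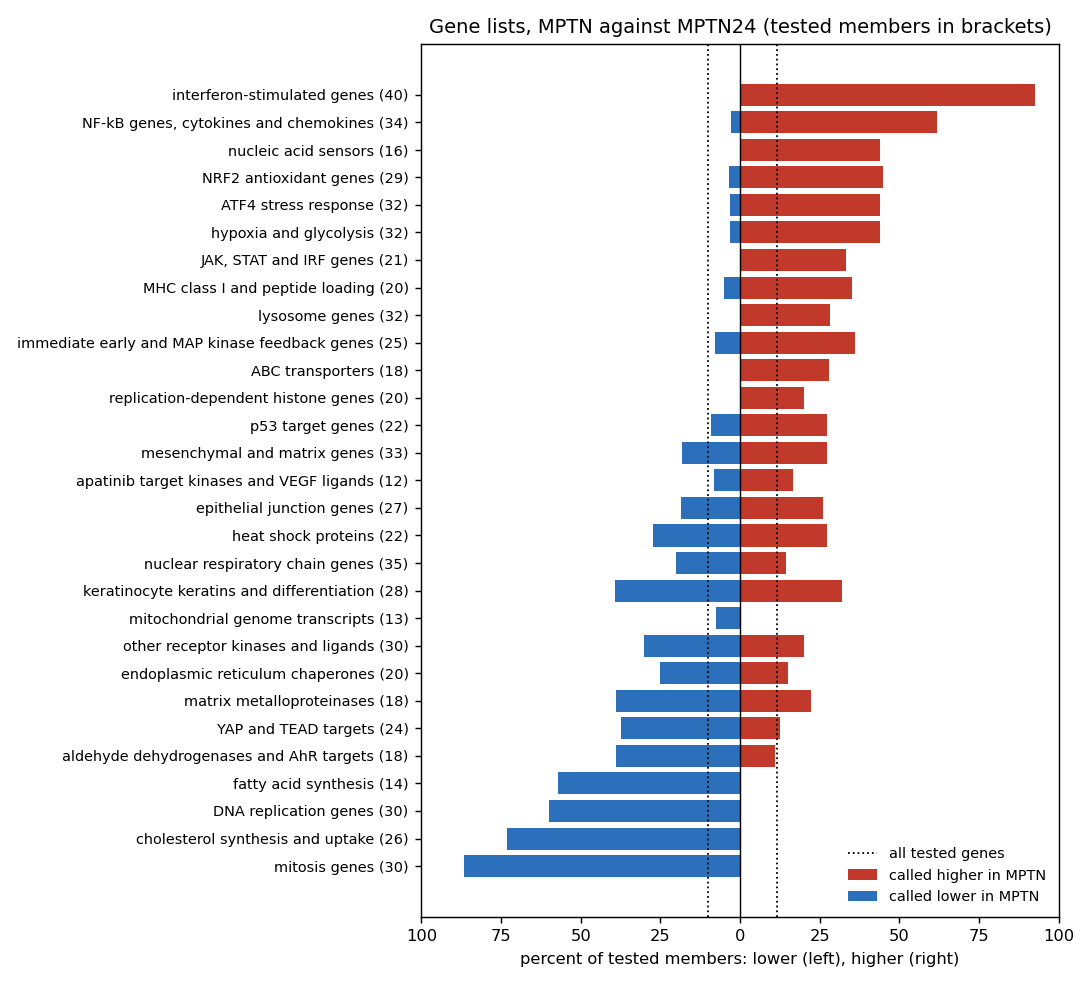
Percent of tested members called higher (right, red) and lower (left, blue) in MPTN for 29 gene lists, tested members in brackets; dotted lines mark 11.5% higher and 10.2% lower over all tested genes. Interferon-stimulated genes (92.5% higher) are at one end and mitosis genes (86.7% lower) at the other.

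Genes of cell division were lower in MPTN. Of 30 mitosis genes, 26 were lower and 0 higher (median log2 change -0.58), and between 23 and 27 when 1 library was left out. MKI67 (ENSG00000148773, chromosome 10, 128096659 to 128126423), the proliferation antigen, was at 126, 109 and 77.4 CPM in MPTN, against 188, 220 and 223 CPM in MPTN24 (2.02-fold lower, edgeR adjusted p = 0.00055). KIF11, the spindle motor, was at 42.4, 44.7 and 40.6 CPM in MPTN and at 64.8, 87.1 and 80.5 CPM in MPTN24 (1.82-fold lower, edgeR adjusted p = 0.00014). KIF2C, a microtubule depolymerase, and CDCA8, a subunit of the chromosomal passenger complex, were both 1.71-fold lower, and the mitotic kinase gene PLK1 1.6-fold. CCNB1, the mitotic cyclin, was at 166, 176 and 193 CPM in MPTN and 240, 232 and 235 CPM in MPTN24 (1.32-fold lower, edgeR adjusted p = 0.0044).

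DNA replication genes followed the same direction: 18 of 30 were lower and 0 higher (median log2 change -0.36). ORC1, a subunit of the origin recognition complex, was at 14.5, 15.2 and 16.6 CPM in MPTN, against 28, 30.2 and 29.6 CPM in MPTN24 (1.9-fold lower, edgeR adjusted p = 5.4e-05). The ribonucleotide reductase subunits RRM2 and RRM1 were 1.68-fold and 1.6-fold lower, the initiation factor gene MCM10 1.74-fold, and MCM2, part of the replicative helicase, 1.33-fold. In none of these did an MPTN library reach the lowest MPTN24 library. Of 20 replication-dependent histone genes tested (26 on the list), 4 were higher and 0 lower, among them H2AC6 (1.77-fold) and H4C8 (1.99-fold); most histone messages lack the poly(A) tail by which such libraries select RNA.

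The hexamer TTTGAA, the core of the cell cycle homology region that the DREAM complex reads in mitotic promoters, was searched on both strands of the same windows. It was found in 15 of 25 mitosis genes with a sequence (60%) and 1 of 27 replication genes, against 16.1% of all 27305 genes. Over tested genes its share was alike in the classes: 12% of those higher, 12.6% of those lower and 12.1% of those not called. MKI67 and KIF11 are shown because they fell most among the mitosis genes named here. Both lie between 60 and 140 Mb on chromosome 10, where 24.9% of tested genes were lower and the median log2 change was -0.19. In their sequences the matches (capitals) begin 47 and 29 bases before the start of MKI67 and 28 bases before that of KIF11, there as the reverse complement.

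MKI67 (chr10:128126424-128126673, minus strand): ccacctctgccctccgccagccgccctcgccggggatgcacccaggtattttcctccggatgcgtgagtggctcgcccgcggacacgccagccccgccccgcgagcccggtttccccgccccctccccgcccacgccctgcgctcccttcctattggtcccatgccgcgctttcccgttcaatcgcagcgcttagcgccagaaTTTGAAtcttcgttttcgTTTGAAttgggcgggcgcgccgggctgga

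KIF11 (chr10:92592880-92593129, plus strand): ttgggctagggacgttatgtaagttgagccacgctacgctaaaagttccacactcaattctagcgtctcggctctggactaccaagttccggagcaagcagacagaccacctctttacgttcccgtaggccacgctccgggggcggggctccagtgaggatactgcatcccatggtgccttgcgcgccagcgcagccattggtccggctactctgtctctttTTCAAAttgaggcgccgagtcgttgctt

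Of 22 p53 target genes, 6 were higher (27.3%) and 2 lower (9.09%), against 11.5% and 10.2% over all tested genes (median log2 change 0.16). BTG2, an antiproliferative gene, rose 2-fold, to 16.1, 17.9 and 15.3 CPM in MPTN against 7.55, 7.51 and 9.67 CPM in MPTN24. The pro-apoptotic genes BBC3 and PMAIP1 were 1.93-fold and 1.76-fold higher, and SESN2, an inhibitor of mTORC1, 1.76-fold. TP53I3 and the repair gene DDB2 were 1.69-fold and 1.35-fold lower.

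Sterol synthesis was lower across the pathway. Of 26 genes of cholesterol synthesis and uptake, 19 were lower and 0 higher (median log2 change -0.57). ACAT2 (ENSG00000120437, chromosome 6, 159762045 to 159779112), which makes the first intermediate, was at 19.4, 19.3 and 18.3 CPM in MPTN, against 45.7, 45.3 and 42.6 CPM in MPTN24 (2.35-fold lower, edgeR adjusted p = 2.2e-06). FDPS, which makes farnesyl pyrophosphate, was at 136, 145 and 157 CPM in MPTN and 288, 265 and 266 CPM in MPTN24 (1.87-fold lower). MVD and LSS, a decarboxylase early and the cyclase midway in the route, were 1.9-fold and 1.86-fold lower. HMGCS1, the synthase of the mevalonate route, was 1.77-fold lower, but its call ended with WT in the fit (edgeR adjusted p = 0.14), where 11 genes of the list were lower. Outside the list, CH25H, which makes 25-hydroxycholesterol, had 57, 51 and 66 counts in MPTN and 0 in MPTN24 (at least 10.8-fold higher).

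Of 14 tested fatty acid synthesis genes (16 on the list), 8 were lower and 0 higher (median log2 change -0.32). FASN (ENSG00000169710, chromosome 17, 82078338 to 82098294), fatty acid synthase, was at 807, 840 and 908 CPM in MPTN, against 2011, 1590 and 2014 CPM in MPTN24 (2.2-fold lower, edgeR adjusted p = 1.5e-05). ACLY, which supplies cytosolic acetyl-CoA, was 1.89-fold lower and the elongase gene ELOVL5 1.5-fold. The desaturase gene SCD was at 1974, 1996 and 1648 CPM in MPTN and 3260, 3182 and 3178 CPM in MPTN24 (1.71-fold lower, edgeR adjusted p = 0.00013; 0.51 with WT in the fit). The list's count fell to 4 without MPTN24 3 and to 4 with WT in the fit. VLDLR, a lipoprotein receptor counted among ATF4 genes here, was 3.41-fold higher in MPTN.

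**Figure D4:**
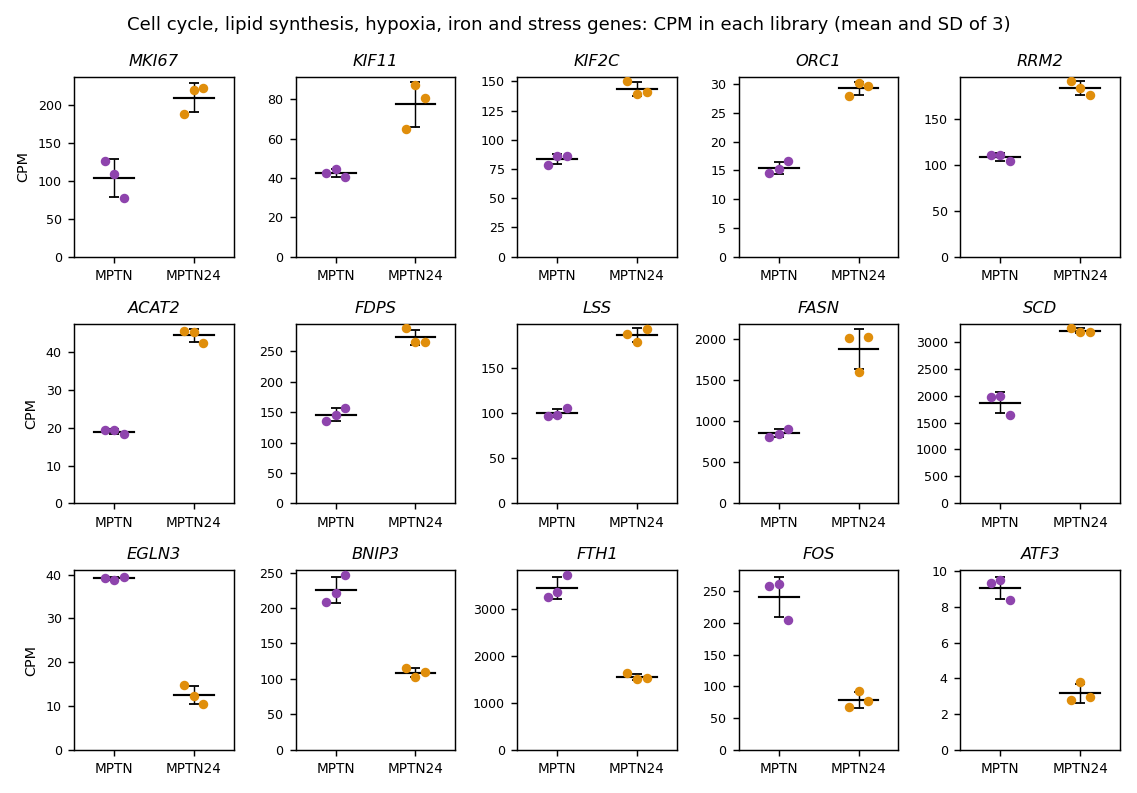
CPM (vertical axis, from 0) of 15 genes of cell division, lipid synthesis, hypoxia, iron storage and stress in each MPTN (left, purple) and MPTN24 (right, orange) library, with the mean and SD of 3 libraries. MKI67, KIF11, ACAT2 and FASN are lower in every MPTN library than in any MPTN24 library, and EGLN3, BNIP3, FTH1 and FOS higher.

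Hypoxia, antioxidant and amino acid stress genes rose more often than fell. Of 32 hypoxia and glycolysis genes, 14 were higher and 1 lower (median log2 change 0.21). EGLN3, an oxygen-sensing prolyl hydroxylase, was at 39.2, 38.7 and 39.5 CPM in MPTN, against 14.7, 12.2 and 10.5 CPM in MPTN24 (3.14-fold, edgeR adjusted p = 2.2e-06). The glucose transporter gene SLC2A3 was 2.45-fold higher, CA9, a carbonic anhydrase at the cell surface, 2.29-fold, and the mitophagy receptor gene BNIP3 2.07-fold, while hexokinase HK1 was 1.31-fold lower. VEGFA, a classic target of hypoxia, was at 170, 176 and 140 CPM in MPTN and 136, 148 and 147 CPM in MPTN24 and was not called (edgeR adjusted p = 0.22; 0.015 without MPTN 3). The lower members numbered 1 to 3 when 1 library was left out, 2 without MPTN24 2 and 3 without MPTN 3.

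Of 29 NRF2 antioxidant genes, 13 were higher and 1 lower (median log2 change 0.24); leaving out 1 library gave 10 to 14 higher and 1 to 3 lower, with 3 lower without MPTN 3 and 2 without MPTN24 2. FTH1, the ferritin heavy chain, was at 3256, 3367 and 3713 CPM in MPTN, against 1626, 1505 and 1533 CPM in MPTN24 (2.22-fold, edgeR adjusted p = 3.3e-06). FTL, the light chain, was 1.67-fold higher; both have processed pseudogene copies that can share reads. PGD, of the pentose phosphate pathway, was 1.37-fold lower. Of 32 genes of the ATF4 stress response, 14 were higher and 1 lower (median log2 change 0.22). The stress factor gene ATF3 was at 9.37, 9.52 and 8.38 CPM in MPTN, against 2.77, 3.79 and 2.94 CPM in MPTN24 (2.87-fold, edgeR adjusted p = 5e-05; 0.27 with WT in the fit). CHAC1, which degrades glutathione, was 1.81-fold higher and the cystine transporter gene SLC7A11 1.77-fold. DDIT4, the lower one, was at 627, 641 and 604 CPM in MPTN and 788, 785 and 781 CPM in MPTN24; its call (edgeR adjusted p = 0.0098) ended without MPTN24 3 (0.054) and with WT in the fit (0.11). Without MPTN 3, 2 members were lower.

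Chaperones split. Of 22 heat shock genes, 6 were higher and 6 lower (median log2 change 0.05). HSPB8, a small heat shock protein, was 3.33-fold higher (12.9 ± 0.44 CPM in MPTN against 3.87 ± 0.3 CPM in MPTN24), and HSPA2, an HSP70 best known from testis, 2.45-fold lower (14.3 ± 1.3 CPM in MPTN against 35.1 ± 2.4 CPM in MPTN24). BAG3, an HSP70 co-chaperone, was 1.3-fold lower. HSPA2 and BAG3 lie on chromosomes 14 and 10, where many genes were lower; 4 of the 6 lower heat shock genes were on these chromosomes or the first 90 Mb of chromosome 2, where 4 were tested. The lower count was 3 without MPTN 2, MPTN24 2 or MPTN24 3, and the higher count 3 without MPTN24 3 or with WT in the fit. Of 20 endoplasmic reticulum chaperone genes, 3 were higher (15%) and 5 lower (25%), against 11.5% and 10.2% over all tested genes. DNAJB9 was 1.86-fold higher and PDIA6 1.27-fold lower. The lower count was 2 without MPTN 1, MPTN 2, MPTN24 1 or MPTN24 3, and 3 without MPTN24 2; it was also 2 with WT in the fit, and 3 with limma or with no filter.

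Of 32 lysosome genes, 9 were higher and 0 lower (median log2 change 0.19), with 4 higher without MPTN24 3, 5 without MPTN 2 and 1 lower without MPTN 3. The cathepsin genes CTSB and CTSD were 1.63-fold and 1.45-fold higher (CTSB at 417, 436 and 466 CPM in MPTN, against 287, 247 and 277 CPM in MPTN24). Nuclear respiratory chain genes numbered 5 higher and 7 lower of 35, with a median log2 change of -0.04. These shares, 14.3% and 20%, compare with 11.5% higher and 10.2% lower over all tested genes. Without MPTN 3, 14 were lower, and without MPTN 2, 4. The higher count was 3 without MPTN24 1, 0 without MPTN24 2 and 1 without MPTN24 3. SDHA, a subunit of succinate dehydrogenase, was 1.28-fold lower and NDUFB8, of complex I, 1.33-fold. Of 13 protein-coding transcripts of the mitochondrial genome, 0 were higher and 1 lower (7.69%), with a median log2 change of -0.22. The lower count was 5 without MPTN 3, 2 without MPTN24 2 and 0 without MPTN24 1 or MPTN24 3.

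Immediate early genes answer growth factor and stress signals within minutes, and MAP kinase feedback genes then damp them. Of 25 tested members of this joint list (26 on it), 9 were higher, 2 lower and 14 not called (median log2 change 0.07). FOS was at 258, 261 and 205 CPM in MPTN, against 68.2, 92.5 and 76.2 CPM in MPTN24 (3.06-fold, edgeR adjusted p = 2.7e-06). DUSP1, a phosphatase that switches off MAP kinases, was 3.88-fold higher and FOSB, a partner of JUN, 3.39-fold. With WT in the fit these 3 calls ended, at edgeR adjusted p = 0.24, 0.11 and 0.2, and 4 genes of the list were higher. ETV4, a MAP kinase target, was 1.49-fold lower, a call that ended without MPTN24 1 (edgeR adjusted p = 0.052). The lower count was 0 without MPTN24 1 and 1 without MPTN 2 or MPTN24 3.

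Among the kinases on the list of apatinib targets, KDR, KIT and RET gave little signal. SRC, on the same list, was at 116, 113 and 125 CPM in MPTN and 154, 131 and 145 CPM in MPTN24. KDR had 0 counts in the 6 libraries, which with 3 read pairs as a floor leaves a low level undetectable. KIT was at 0.148, 0.295 and 0.123 CPM in MPTN and 0, 0.353 and 0.141 CPM in MPTN24, and RET at 4.11, 4.69 and 3.65 CPM in MPTN against 5.53, 4.29 and 4.65 CPM in MPTN24; neither was called (edgeR adjusted p = 0.93 and 0.43). Of 12 tested genes among these targets and the VEGF ligands (16 on the list), 2 were higher and 1 lower. These shares, 16.7% and 8.33%, lay near the 11.5% and 10.2% over all tested genes. VEGFC, a ligand of FLT4 and KDR, was 1.44-fold higher (80.4 ± 6.5 CPM in MPTN against 55.7 ± 5.5 CPM in MPTN24, edgeR adjusted p = 0.0021). The other 2, VEGFB (1.28-fold higher) and SRC (1.21-fold lower), each lost the call in several fits: VEGFB without MPTN 3 (edgeR adjusted p = 0.086), MPTN24 1 (0.092), MPTN24 2 (0.16) or MPTN24 3 (0.14), SRC without MPTN 1 (0.096), MPTN 2 (0.16), MPTN24 1 (0.14) or MPTN24 3 (0.14).

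Among 30 tested genes of other receptor kinases and their ligands (33 on the list), 6 were higher and 9 lower. FGF2, a basic fibroblast growth factor, was at 27.7, 26.4 and 21.8 CPM in MPTN, against 6.84, 7.3 and 8.38 CPM in MPTN24 (3.37-fold, edgeR adjusted p = 1.7e-06). HBEGF, an EGFR ligand, was 1.68-fold higher, and NRG1, a ligand of ERBB3, and ERBB3 itself were 1.49-fold and 1.46-fold lower. AXL was at 407, 427 and 399 CPM in MPTN and 639, 548 and 603 CPM in MPTN24 (1.45-fold lower, edgeR adjusted p = 0.00086). EGFR was not called, at 1195, 1158 and 861 CPM in MPTN against 868, 958 and 975 CPM in MPTN24 (edgeR adjusted p = 0.27; 0.006 without MPTN 3). The lower count was 5 without MPTN 2 or MPTN24 2 and 4 without MPTN24 3.

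Drug efflux genes did not lead. ABCB1, the multidrug transporter, had 9, 0 and 0 counts in MPTN and 0, 12 and 17 in MPTN24, too few to test. ABCG2 was at 20.5, 23.2 and 20.7 CPM in MPTN and 26.1, 25.5 and 24.3 CPM in MPTN24 (a log2 change of -0.24 ± 0.1; edgeR adjusted p = 0.11). Of 18 tested ABC transporter genes (20 on the list), 5 were higher and 0 lower, with 3 higher without MPTN 2, MPTN24 2 or MPTN24 3, 1 lower without MPTN 3, and 1 higher with WT in the fit. The cholesterol exporter gene ABCG1 was at 93.7, 97.9 and 94.4 CPM in MPTN, against 35.7, 32.5 and 34.5 CPM in MPTN24 (2.79-fold, edgeR adjusted p = 1.5e-07; 0.071 with WT in the fit).

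Matrix and epithelial genes changed in both directions. Of 33 tested mesenchymal and matrix genes (36 on the list), 9 were higher and 6 lower; the lower count was 2 without MPTN24 1 or MPTN24 3 and 3 without MPTN 1 or MPTN 2. COL6A2, a collagen chain, was at 52.7, 56.5 and 64.1 CPM in MPTN, against 14.6, 12.1 and 12.5 CPM in MPTN24 (4.43-fold, edgeR adjusted p = 9.8e-08). CDH2, or N-cadherin, was 2.29-fold higher, LOX, a collagen cross-linking enzyme, 2.11-fold and the transcription factor gene TWIST1 1.77-fold, while fibronectin FN1 was 2.29-fold lower (65.3 ± 11 CPM in MPTN against 150 ± 4.3 CPM in MPTN24). VIM (1078 ± 73 CPM in MPTN against 936 ± 4.5 CPM in MPTN24) and CDH1 (146 ± 21 CPM in MPTN against 141 ± 3 CPM in MPTN24) were not called (edgeR adjusted p = 0.11 and 0.8); VIM was called with DESeq2 (0.042) and without MPTN 3 (0.014). Of 18 metalloproteinase genes, 4 were higher and 7 lower. The collagenase gene MMP1 was at 929, 987 and 1093 CPM in MPTN and 2111, 1985 and 1928 CPM in MPTN24 (2-fold lower), and the stromelysin gene MMP10 was 3.42-fold lower, but both calls ended with WT in the fit (edgeR adjusted p = 0.29 and 0.1), where 1 of the list was lower. The higher count was 2 without MPTN 3, MPTN24 2 or MPTN24 3.

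Of 28 tested keratinocyte genes (34 on the list), 9 were higher and 11 lower, or 6 lower with WT in the fit. LCN2, an iron-siderophore carrier, was 4.37-fold higher (22.2, 22.1 and 29.3 CPM in MPTN against 6.31, 5.17 and 5.35 CPM in MPTN24), and the differentiation factor gene KLF4 2.85-fold. TGM2, a transglutaminase, was 2.03-fold lower and EVPL, a cornified envelope protein, 1.64-fold. Of 27 tested junction genes (28 on the list), 7 were higher and 5 lower: the tight junction gene CLDN1 was 1.98-fold higher, the desmosomal cadherin gene DSG3 1.39-fold higher, and EPCAM 1.5-fold lower. The higher count was 4 without MPTN 2, MPTN24 1 or MPTN24 2, and the lower count 2 without MPTN24 3. Of 24 YAP and TEAD targets, 3 were higher (12.5%) and 9 lower (37.5%), against 11.5% and 10.2% over all tested genes. Without MPTN24 3, 5 were lower, and without MPTN24 1 or MPTN24 3, 1 was higher. THBS1, an adhesive glycoprotein, was 1.54-fold lower and MYOF, a membrane repair protein, 1.53-fold. Of 18 tested aldehyde dehydrogenases and AhR targets (19 on the list), 2 were higher (11.1%) and 7 lower (38.9%). Without MPTN 2, 4 were lower, and without MPTN 2 or MPTN24 3, 1 was higher. AHR was 1.69-fold higher, and its target CYP1A1 was at 0.336, 0.538 and 0.531 CPM in MPTN against 3.06, 3.48 and 3.43 CPM in MPTN24 (7.05-fold lower, edgeR adjusted p = 2.3e-05).

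A set of called genes had few or no counts in 1 group. The cut of 12 counts was the same for both groups, though each MPTN library held more counts than any MPTN24 library. Such genes passed the filter mainly through the group where they were high. How many tested genes lay under the cut in each group is not given here, so the numbers of the 2 directions are not compared. Of the genes higher in MPTN, 54 had 12 counts or fewer over the MPTN24 libraries, 38 of them protein-coding and 15 long noncoding, and 28 were at 0 there. Besides the interferons these included CSAG3, a cancer-testis family gene on the X chromosome with close copies (94, 65 and 104 counts in MPTN and 0 in MPTN24, at least 16.3-fold higher), EDIL3, an integrin-binding matrix protein (71, 74 and 79 counts, at least 13.9-fold) and the chemokine gene CCL3 (44, 42 and 70 counts, at least 9.69-fold). Of the genes lower in MPTN, 9 had 12 counts or fewer in MPTN and 2 were at 0. These 2 were SYN1, a synaptic vesicle gene, with 57, 74 and 99 counts in MPTN24 (at least 25.7-fold lower in MPTN), and A2ML1, a protease inhibitor of the epidermis, with 14, 15 and 15 (at least 4.92-fold lower). By gene type, 153 of 2239 tested long noncoding RNAs were higher (6.83%) and 45 lower (2.01%), against 12.8% and 12% of 13248 protein-coding genes; libraries did not mark strand, so antisense genes cannot be told from their partners.

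Called genes were unevenly spread along the genome (GRCh38). On chromosome 5, 152 of 752 tested genes were higher (20.2%) and 46 lower (6.12%), with a median log2 change of 0.15. Chromosome 10 went the other way, with 51 of 669 higher (7.62%) and 143 lower (21.4%), and chromosome 14 had 43 of 552 higher and 107 lower (19.4%). The medians over chromosome 10 were -0.11, -0.12 and -0.15 in MPTN 1, MPTN 2 and MPTN 3 against the MPTN24 mean, so the 3 libraries were alike. Genes of the mitochondrial genome, transfer RNAs included, were 0 of 37 higher and 12 lower.

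**Figure D5:**
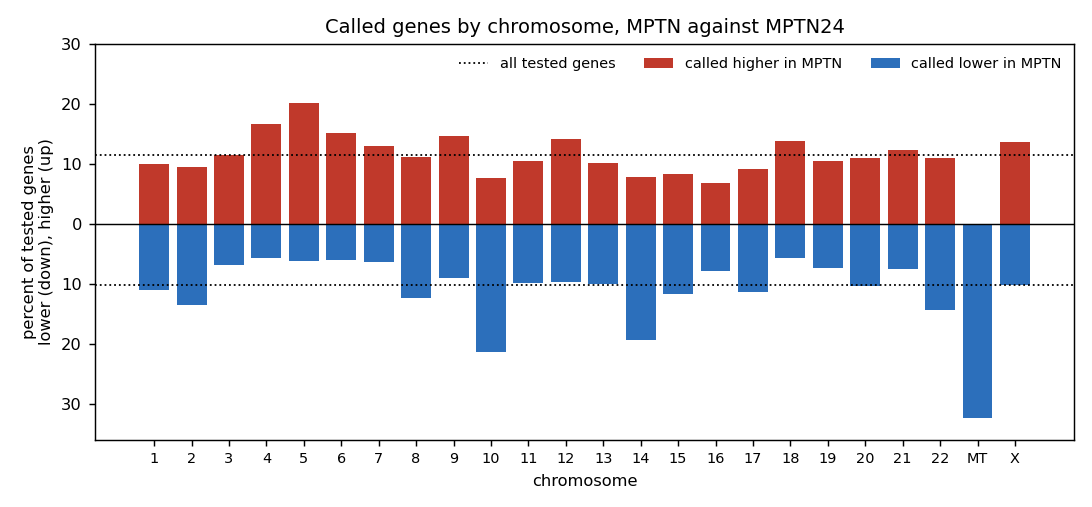
Percent of tested genes called higher (up, red) and lower (down, blue) in MPTN on each chromosome, with dotted lines at 11.5% and 10.2% for all tested genes. Chromosome 5 has the highest share of rises (20.2%), and among the nuclear chromosomes 10 (21.4%) and 14 (19.4%) have the highest shares of falls.

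Within chromosomes the shift came in stretches, whose bounds were set after the values of 10 Mb windows had been seen. Along chromosome 2, 9 of 9 windows from 0 to 90 Mb had a median below 0 (-0.3 to -0.07), with 102 of 427 genes lower (23.9%) and 21 higher. From 90 Mb on, 81 of 647 genes were higher (12.5%) and 44 lower, and 13 of 16 windows had a median above 0. From 50 to 130 Mb on chromosome 5, 73 of 272 genes were higher (26.8%) and 8 lower, 8 of 8 windows had medians above 0, and each MPTN library shared the shift (0.25, 0.22 and 0.2). From 60 to 140 Mb on chromosome 10, 109 of 438 genes were lower (24.9%) and 8 of 8 windows had medians below 0. DNA copy number was not measured here, and its part in these shifts was not tested. On chromosomes 10 and 14 and the first 90 Mb of chromosome 2, 352 of 1648 tested genes were lower. Elsewhere, leaving out the Y chromosome, 1319 of 14736 were lower. Among these were 23 of 26 mitosis genes, 16 of 27 replication genes and 18 of 25 cholesterol genes. Of the heat shock genes, 4 of 4 on chromosomes 10 and 14 and that part of chromosome 2 were lower, and 2 of 18 elsewhere. IFIT1 and IFIT2 rose on chromosome 10 itself.

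Markers of other cell types were partly detected. Of 16 leukocyte markers, 8 had a count in some library and 8 had 0 counts in the 6 libraries, among them PTPRC, CD3E, CD2, MS4A1, NKG7, GZMB and TYROBP. The summed level was 89.1 to 96.7 CPM in MPTN and 127 to 148 CPM in MPTN24. Most of it was CD68, at 73.4, 80.1 and 80 CPM in MPTN and 119, 103 and 111 CPM in MPTN24. The 2 called members, LAPTM5 and CD68, were lower in MPTN. Of 12 fibroblast markers 10 had a count; they summed to 36.2 to 38.1 CPM in MPTN and 45.6 to 49.4 CPM in MPTN24, with COL1A2 and THY1 at 0. Of 10 endothelial markers 6 had a count; they summed to 2.68 to 3.57 CPM in MPTN and 2.25 to 2.87 CPM in MPTN24, with CDH5, KDR, CLDN5 and EMCN at 0. The part of such cells in the results was not tested.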

How the data were processed

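Per the labels, RNA came from a Trizol extraction and an Illumina TruSeq RNA kit gave the libraries. Per the submitters' processing notes, the tools were HISAT2, StringTie, edgeR, Trimmomatic, FastQC and CASAVA 1.8, and the build GRCh38; settings and annotation release are not given in the sources used here. The authors deposited estimated counts for 60612 genes, whole in every value, and a table of FPKM, a unit inferred from its values. No column of values was left out.

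Counts of MPTN and MPTN24 were filtered by filterByExpr (minimum count 10, total 15), scaled by TMM and tested with edgeR 4.0.16 (quasi-likelihood, robust, R 4.3.3) at a Benjamini-Hochberg threshold of 0.05. CPM use these scaled library sizes. The biological coefficient of variation was 17%. SEs are the log2 change divided by the root of the F statistic. Counting intervals and floors (12 counts over a group, or 3 pairs) cover counting error only.

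Named genes were the 10 largest rises and 10 largest falls whose higher group reached 5 CPM, up to 4 and 2 called members of each list in its main and other direction, and CD274, VIM, CDH1, MKI67, ABCG2, ABCB1, AXL, EGFR, VEGFA, RET, KIT and KDR. The following were chosen after their values were seen: the interferon genes and receptors, RSAD2, ZBP1, CSAG3, EDIL3, CH25H, CCL3, SYN1, A2ML1, CYP1A1, IFIT1, IFIT2, ISG15, OAS1, MX1, CXCL2, CXCL8, IL6, HMGCS1, CCNB1, PLK1, IRF3, MCM2, DSG3 and EPCAM. Some list members are not reported here. Members and lists were chosen with earlier results of these data known. Promoter sequences were matched to RefSeq (GRCh38.p14) by Ensembl gene identifier, or else by symbol, for 11207 tested genes.

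Other settings were RLE and upper-quartile scaling, no filter, 1 CPM in 3 libraries, a replicate block, all 9 libraries in the fit, limma 3.58.1 with 0.1 or 1 added to FPKM before the log2 (FPKM of 0.1 or more in 3 libraries), DESeq2 1.42.0, a test against a 2-fold change, counts divided by 4, and each library left out. The code was tested on simulated data.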

Additional observations from a re-analysis of the deposited data

How the results depend on the processing

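The counts of 1880 genes higher and 1671 lower stayed within 1.5 times under RLE scaling (1847 and 1733), upper-quartile scaling (1960 and 1592), no filter (1916 and 1409), a filter at 1 CPM (1936 and 1790), counts divided by 4 (1994 and 1829), DESeq2 (2131 and 2088) and a fit with all 9 libraries (1334 and 1138). With limma on log2(FPKM + 0.1) and log2(FPKM + 1), 955 and 966 genes were lower. In a test against a 2-fold change 112 were higher and 17 lower. Leaving out 1 library gave 1254 to 1932 higher and 908 to 1938 lower, the lowest without MPTN24 3. With the replicate number as a block 1799 were higher and 1554 lower, 1688 and 1460 of them shared with the fit without it. Deviations of libraries with the same number correlated at -0.038 to 0.029, and of those with different numbers at -0.077 to 0.075. These values show no clear pairing by number, and a weak pairing could be missed with so few libraries. With all 9 libraries in the fit, which adds WT, the list counts that moved by over 1.5 times were cholesterol synthesis (11 lower), fatty acid synthesis (4 lower), metalloproteinases (1 higher, 1 lower), mesenchymal genes (1 lower), immediate early and feedback genes (4 higher, 1 lower), lysosome genes (4 higher), ABC transporters (1 higher), keratinocyte genes (6 lower), junction genes (4 higher, 3 lower), heat shock genes (3 higher), endoplasmic reticulum chaperones (2 lower), apatinib targets (1 higher, 0 lower), and MHC class I, ATF4 and mitochondrial genome genes (0 lower each). With either limma fit these were junction genes (1 lower), mesenchymal genes (3), aldehyde dehydrogenase and AhR genes (4), YAP targets (5), other receptor kinases (5), endoplasmic reticulum chaperones (3), NF-kB genes (2), immediate early and feedback genes (1), apatinib targets and mitochondrial genome genes (0 each), all in the number lower, and ABC transporters (3 higher). Under the remaining scaling, filter, block and tool settings, the moved list counts were small ones, of 6 genes or fewer in the fit reported. No gene named and called changed direction in any setting. Depth limits the genes near 12 counts over a group, where only bounds are given.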
